A study of Macaca fascicularis with 16 samples.

Results

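Adipokines, the hormones that fat cells secrete, and the genes with which fat cells take up, build and break down lipid were followed in mammary tissue of cynomolgus macaques. The set was all probe sets to which the array annotation gave one of 10 symbols and no other: ADIPOQ, LEP, CFD and RETN among the secreted factors, the regulator PPARG, and LPL, FABP4, GPAM, GPD1 and PNPLA2 among the lipid genes. This rule found 21 of the 52865 probe sets of the array, for 10 of 14133 genes, and all 21 passed the filter on low signals. The rule used names only, and the genes were proposed with earlier results of these data known. Where a gene has several probe sets, they are numbered from the highest mean signal down (CFD 1, CFD 2).

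Tissue came from 16 female postmenopausal macaques, all of them ovariectomized, the untreated controls included, in a study of hormone replacement therapy. The 4 groups of 4 animals received no treatment (control), conjugated equine estrogens at 0.042 mg/kg (CEE), that dose together with the progestin medroxyprogesterone acetate at 0.167 mg/kg (CEE+MPA), or 0.2 mg/kg of the synthetic steroid tibolone (titled OD14-HIGH in the labels). Each animal gave 1 Affymetrix array, whose probes were designed for the rhesus macaque. No label says how old the animals were, how long they were treated or how the gland was sampled.

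Fat fills much of the mammary gland around the epithelial ducts, and its cells store triglyceride in one large droplet. PPARG is the transcription factor that drives fat cell formation and holds the fat cell program on. Lipoprotein lipase frees fatty acids from circulating lipoproteins, FABP4 carries them inside the cell, GPAM and GPD1 serve the building of triglyceride, and PNPLA2 starts its breakdown. Adiponectin (ADIPOQ), leptin (LEP), adipsin (CFD) and resistin (RETN) are released into the blood.

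Every member gave a signal above the table's median of 60.2 on all 16 arrays, and the lowest member value in the set was 65.6, for LEP on CEE+MPA replicate 2. Of 21 listed genes of fat droplets and fat cell identity, 13 had a tested probe set, and their summed signal was 6927 to 14594 over the arrays. PLIN1, PLIN2, PLIN4 and CIDEC, which would mark fat droplets most directly, had none. Luminal epithelial markers were present on every array too, with a summed signal of 46608 to 102169 over 16 of 18 listed genes. On 4 arrays the mean of the skeletal muscle list (15 of 23 genes tested, each gene centred on its mean over all arrays) was above 1 on the log2 scale: control replicate 1, CEE+MPA replicate 1 and tibolone replicates 2 and 3. The spike-in control dap divided the arrays into a low set of 6 (control replicates 3 and 4, CEE replicates 1 and 2, CEE+MPA replicates 1 and 4) and a high set of 10 with the rest, which includes all 4 tibolone arrays. The labels do not name these sets.

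CFD, by both of its probe sets, and RETN fell with CEE+MPA against control and were higher with tibolone than with CEE+MPA, while no probe set of the other 8 genes passed the test in any of 6 comparisons. Whether the members differed from each other in their response was not tested, and LEP 1 (-1.66) and GPAM 1 (-0.95), which did not pass, lay at differences of similar size for CEE+MPA against control. Differences are given as log2 of (signal + 16), which understates the change of low signals, with the standard error of the limma model, and p is adjusted by Benjamini and Hochberg over all 28716 tested probe sets with 0.05 as the threshold. With CEE+MPA against control, 3 of 21 member probe sets were lower and 0 higher, where 6.33% of all tested probe sets passed, 4.38% of them lower. The median difference was -0.51 over the members and -0.01 over all tested probe sets. With tibolone against CEE+MPA, 3 of 21 were higher and 0 lower, where 6.34% of all passed, 3.78% higher, and the medians were 0.26 and 0.04. These 2 comparisons share the CEE+MPA animals and so are not independent of each other.

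The remaining comparisons gave no member past the threshold. With CEE against control it was 0 of 21 by limma (background 0.0731%), although 5 probe sets, of CFD, RETN and GPAM, had an unadjusted p under 0.05, as did 3575 of all tested. The median of the members was -0.62 there, against 0.004 over all. With tibolone against control it was 0 of 21 (background 0.0244%), and 0 had an unadjusted p under 0.05, where 1552 of all did. With CEE+MPA against CEE it was again 0 of 21 (background 0.0209%) with 0 at an unadjusted p under 0.05, where 2217 of all had one. With tibolone against CEE it was 0 of 21 (background 0.00696%), with 4 at an unadjusted p under 0.05 and 3424 over all.

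**Figure D1:**
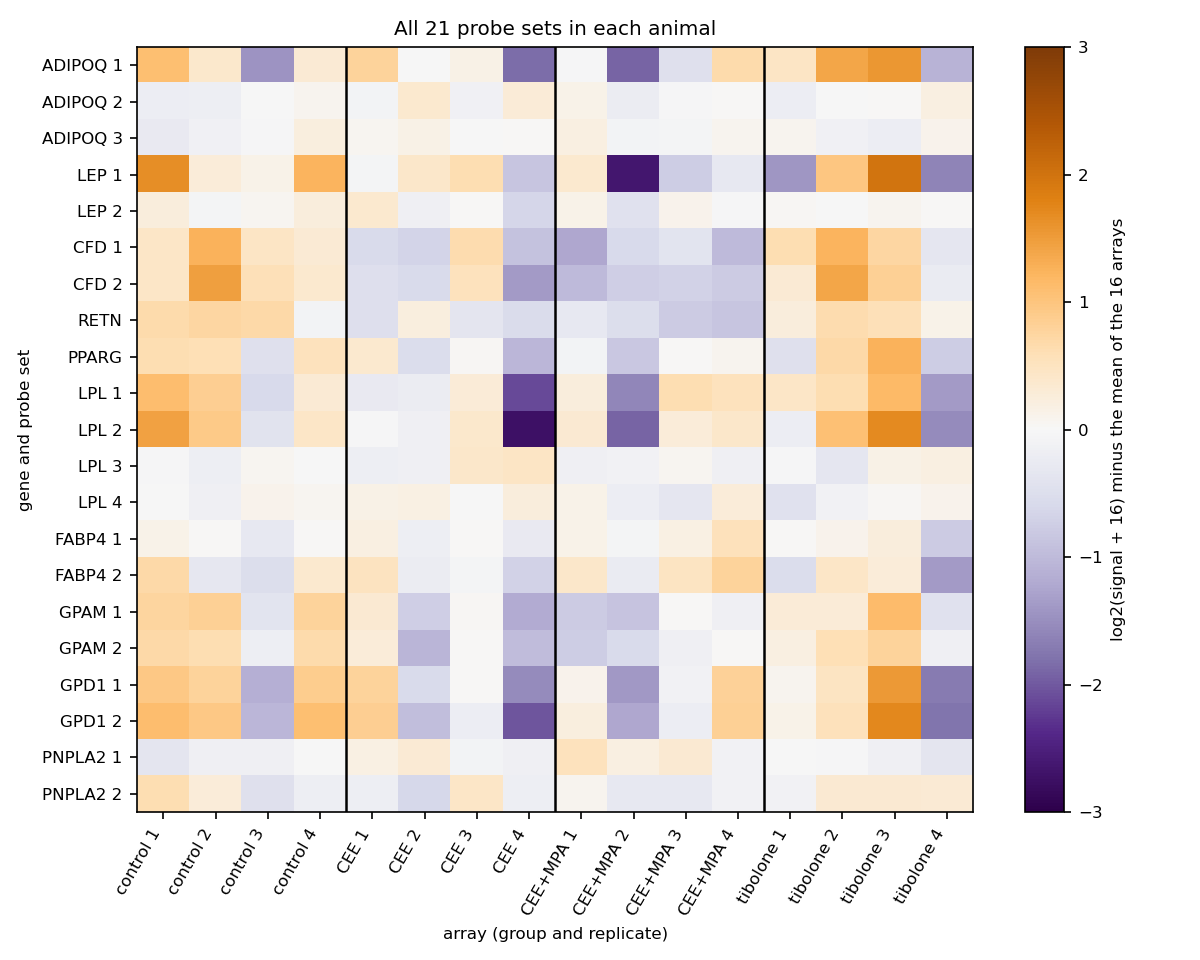
Each row is a member probe set and each column an animal; the color is log2(signal + 16) minus the mean of that probe set over the 16 arrays. Control 3, CEE 4, CEE+MPA 2 and tibolone 4 are purple (low) in ADIPOQ 1, PPARG, LPL 1 and 2 and GPD1 1 and 2, while CFD and RETN are purple in all 4 CEE+MPA animals.

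CFD encodes adipsin, also called complement factor D, a serine protease that fat cells secrete in large amounts and that starts the alternative complement pathway. CFD 1 (MmugDNA.36912.1.S1_at) gave 7067, 12571, 7150 and 6522 in the 4 control animals and 3488, 3268, 8181 and 2811 with CEE. It gave 2226, 3461, 4009 and 2604 with CEE+MPA and 8028, 12324, 8752 and 4101 with tibolone. Every CEE+MPA animal lay below every control animal, as held for 9.41% of all tested probe sets, and below every tibolone animal (13.1% of all did not overlap there, in either direction), and 3 of the 4 CEE animals lay below every control animal as well, with CEE replicate 3 among the controls.

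The mean signal of this probe set was 8328 ± 2843 in controls, 8301 ± 3371 with tibolone, 4437 ± 2512 with CEE and 3075 ± 809 with CEE+MPA (SD, n = 4 each). CEE+MPA was lower than control by a log2 difference of -1.42 ± 0.36 (95% interval -2.18 to -0.66, adjusted p = 0.0318), a 2.67-fold fall. Tibolone exceeded CEE+MPA by 1.36 ± 0.36 (adjusted p = 0.0384). In that order of levels no pair of neighbours passed the test: tibolone against control was -0.06 (interval -0.81 to 0.70, adjusted p = 0.993), tibolone against CEE 0.94 ± 0.36 (adjusted p = 0.339) and CEE+MPA against CEE -0.42 ± 0.36 (adjusted p = 0.814). CEE against control was -0.99 ± 0.36 and did not pass either (adjusted p = 0.288).

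CFD 2 gave the same picture. Its signal was 4390, 9048, 4857 and 4211 in controls, 2328, 2159, 4705 and 1243 with CEE, 1622, 1937, 2024 and 1864 with CEE+MPA, and 4044, 8554, 5810 and 2717 with tibolone. The CEE+MPA animals were close together (1862 ± 172, SD, n = 4) and below all control and tibolone animals. Of all tested probe sets, 9.41% lay wholly lower than control, and 13.1% did not overlap with tibolone in either direction. The log2 difference from control was -1.52 ± 0.38 with CEE+MPA (2.86-fold, adjusted p = 0.0297), -1.19 ± 0.38 with CEE (adjusted p = 0.238) and -0.14 ± 0.38 with tibolone (adjusted p = 0.977). Tibolone against CEE+MPA was 1.37 ± 0.38 (adjusted p = 0.043).

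RETN encodes resistin, which in mice comes from fat cells and in humans largely from monocytes and macrophages. Its 1 probe set (MmugDNA.15762.1.S1_at) gave 254, 271, 261 and 145 in controls, 108, 185, 117 and 100 with CEE, 125, 105, 84.3 and 78.8 with CEE+MPA, and 187, 250, 240 and 171 with tibolone. All 4 CEE+MPA values lay below all control values, as held for 9.41% of all tested probe sets. They also lay below all tibolone values, where 13.1% of all did not overlap in either direction. Control replicate 4 was the single control animal within the range of the CEE group. Means were 233 ± 59.0 in controls, 212 ± 38.8 with tibolone, 127 ± 38.8 with CEE and 98.2 ± 21.1 with CEE+MPA (SD, n = 4 each). RETN fell by 1.11 ± 0.22 on the log2 scale with CEE+MPA against control (2.15-fold, adjusted p = 0.0119), and tibolone exceeded CEE+MPA by 1.0 ± 0.22 (adjusted p = 0.0223).

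The other RETN comparisons did not pass: CEE against control was -0.80 ± 0.22 (adjusted p = 0.192), tibolone against CEE 0.69 ± 0.22 (adjusted p = 0.281), CEE+MPA against CEE -0.31 ± 0.22 (adjusted p = 0.772) and tibolone against control -0.11 ± 0.22 (adjusted p = 0.968). The group means accounted for 73.5% of the variance of RETN over the arrays and for 61.1% and 62.1% of that of the CFD probe sets. These were the highest shares among the members.

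Both genes kept their direction in every alternative, but the calls for CFD sat close to the threshold. Against control, CFD 1 missed it when any single array other than control replicate 4 was left out (log2 difference -1.56 to -1.20, highest adjusted p 0.115). CFD 2 missed it without control replicates 1, 2 or 3 or CEE+MPA replicates 1, 2 or 3 (-1.63 to -1.26, highest adjusted p 0.108). RETN missed it without control replicate 2 only (adjusted p = 0.051). Over the whole table, calls fell from 1819 to 348 without that array. Without the 4 arrays with high skeletal muscle signal CFD was at -1.34 (adjusted p = 0.0884) and -1.55 (adjusted p = 0.0592), and RETN passed at -1.16 (adjusted p = 0.0345). Within the high spike-in set, with 2 animals a group, the differences from control were -1.34, -1.66 and -1.34 for the CFD probe sets and RETN (adjusted p = 0.129, 0.106 and 0.034). Within the low set they were -1.50, -1.37 and -0.87 (adjusted p = 0.394, 0.496 and 0.418), where 0 probe sets of the whole table passed.

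For tibolone against CEE+MPA, the CFD calls passed with tibolone replicate 4 left out and missed the threshold without any other single array of the 2 groups (highest adjusted p 0.119 and 0.133). RETN missed it without CEE+MPA replicate 3 or tibolone replicates 2 or 3 (highest adjusted p 0.0769). Over the whole table, calls fell from 1820 to 209 without tibolone replicate 2. Tibolone replicates 2 and 3 were 2 of the arrays with high skeletal muscle signal. Without all 4 such arrays the differences were 0.79, 0.77 and 0.90 (adjusted p = 0.587, 0.605 and 0.356). In that fit 0 probe sets of the whole table passed, so it cannot single out the members. It left tibolone replicates 1 and 4, and replicate 4 had the lowest signal of its group for all 10 genes. All tibolone arrays lay in the high spike-in set. With the sets as a block the CFD differences were 1.10 and 1.25 (adjusted p = 0.0973 and 0.101) and RETN passed at 1.0 (adjusted p = 0.0441).

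**Figure D2:**
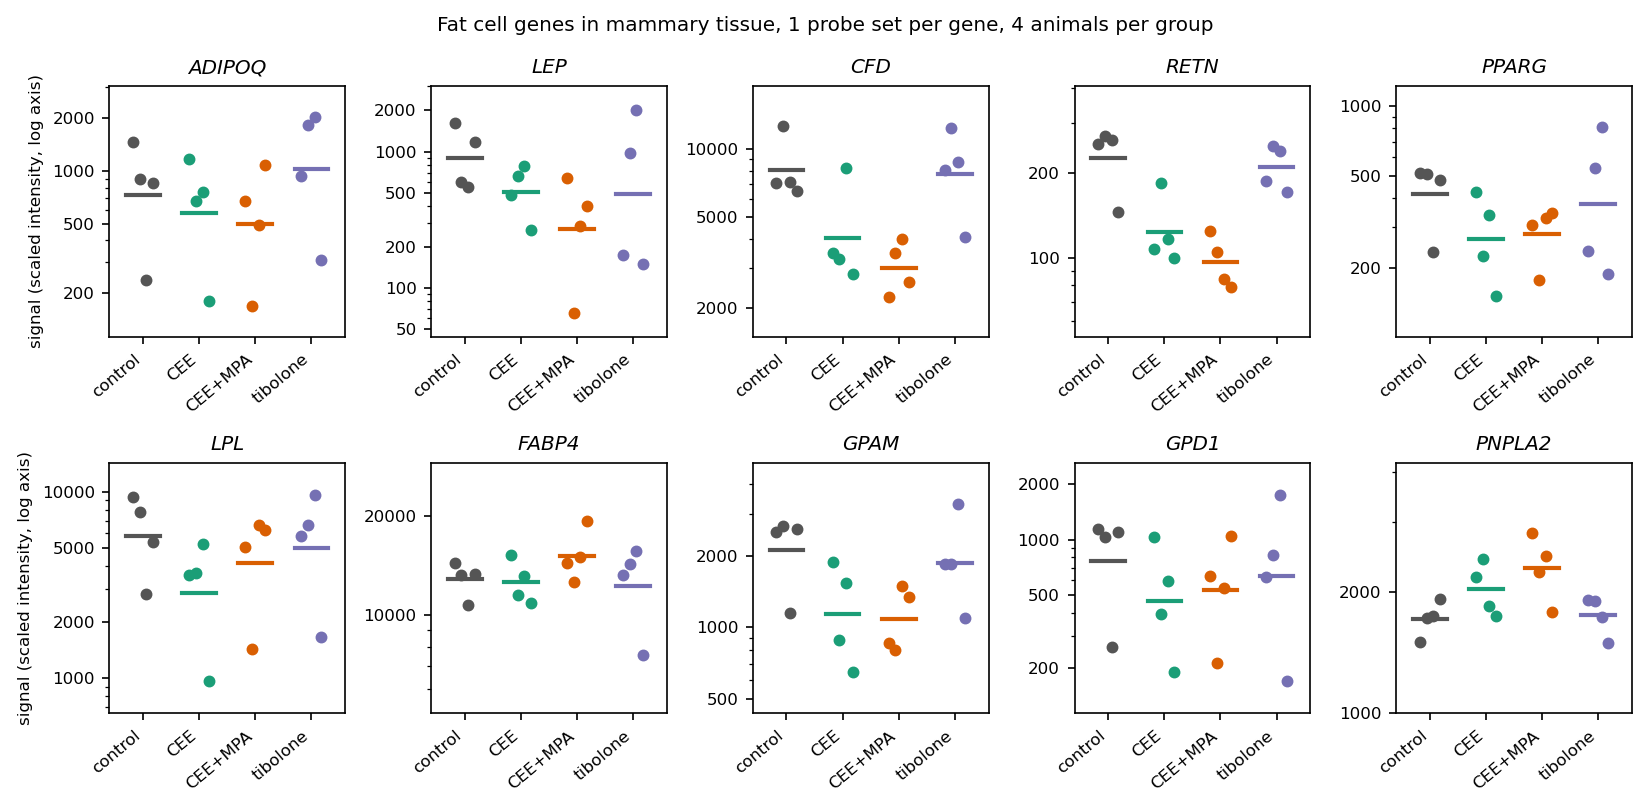
Signal of 1 probe set per gene (the one with the highest mean) on a log axis, with a point for each animal and a bar at the mean of the log2 signals, in 4 groups of 4. In CFD and RETN all CEE+MPA points lie under all control and tibolone points, whereas the groups of the other 8 genes overlap in every pair with control. Of all tested probe sets, 9.41% lie wholly lower with CEE+MPA than control, and 13.1% do not overlap between tibolone and CEE+MPA.

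Leptin is the hormone by which fat reports its stores to the brain. LEP 1, the more variable of its probe sets, gave 1606, 602, 545 and 1179 in controls, 479, 667, 778 and 266 with CEE, 640, 65.6, 286 and 402 with CEE+MPA, and 174, 984, 2016 and 151 with tibolone. The groups overlapped, and both the highest and the second lowest of all values were in the tibolone group. Means were 983 ± 504 in controls, 831 ± 880 with tibolone, 547 ± 225 with CEE and 348 ± 239 with CEE+MPA (SD, n = 4 each). The difference of CEE+MPA from control was -1.66 ± 0.75 (interval -3.25 to -0.065), the farthest from 0 of any member, and it did not pass (unadjusted p = 0.0423, adjusted p = 0.19). CEE against control was -0.79 ± 0.75 and tibolone against control -0.85 ± 0.75, neither past the threshold. LEP 2 (MmugDNA.8791.1.S1_at) ranged over the arrays from 82.2 to 182, with -0.18 ± 0.18 for CEE+MPA against control (adjusted p = 0.591).

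Adiponectin is an abundant plasma hormone made almost only by fat cells. ADIPOQ 1 gave 1465, 898, 239 and 853 in controls, 1173, 669, 754 and 180 with CEE, 669, 168, 489 and 1088 with CEE+MPA, and 936, 1820, 2039 and 310 with tibolone. The highest value of each group was 6.14 to 6.58 times its lowest, and the ranges of all 4 groups overlapped. The difference from control was -0.32 (interval -1.81 to 1.17) with CEE, -0.52 (-2.01 to 0.97) with CEE+MPA and 0.49 (-1.0 to 1.98) with tibolone, and none passed (adjusted p = 0.892, 0.702 and 0.943). All 3 intervals are wide and take in changes in both directions.

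The other ADIPOQ probe sets told little of this spread. ADIPOQ 2 (MmuSTS.3950.1.S1_at) stayed between 421 and 641 and ADIPOQ 3 (MmugDNA.19916.1.S1_at) between 336 and 477 on the 16 arrays, while ADIPOQ 1 varied 12.1-fold. ADIPOQ 2 and 3 had a within-group SD of 0.18 and 0.15 on the log2 scale, under the median of 0.29 over all tested probe sets, against 1.13 for ADIPOQ 1. The probe sets of ADIPOQ disagree on how much the animals differ. The largest difference from control in ADIPOQ 2 or 3, 0.19 ± 0.14 for CEE against control, did not pass (adjusted p = 0.631).

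PPARG, the regulator of the fat cell program, had 1 probe set (MmuSTS.2287.1.S1_at), with 517, 510, 235 and 481 in controls, 426, 225, 338 and 151 with CEE, 308, 177, 330 and 347 with CEE+MPA, and 236, 539, 813 and 188 with tibolone. The groups overlapped throughout, and the tibolone group held the highest value. Its mean was 444 ± 291 with tibolone, 436 ± 135 in controls, 290 ± 77.2 with CEE+MPA and 285 ± 121 with CEE (SD, n = 4 each). Against control the log2 difference was -0.62 ± 0.42 with CEE (interval -1.50 to 0.27, adjusted p = 0.574), -0.54 ± 0.42 with CEE+MPA (-1.42 to 0.35, adjusted p = 0.472) and -0.14 ± 0.42 with tibolone (-1.02 to 0.75, adjusted p = 0.98).

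LPL encodes lipoprotein lipase, which fat cells and, in lactation, the mammary epithelium use to draw fatty acids from the blood. LPL 1 (MmuSTS.386.1.S1_at) gave 9356, 7741, 2814 and 5385 in controls, 3586, 3648, 5242 and 969 with CEE, 5070, 1428, 6606 and 6214 with CEE+MPA, and 5802, 6606, 9566 and 1661 with tibolone. Control replicate 3, CEE replicate 4, CEE+MPA replicate 2 and tibolone replicate 4 were the lowest of their groups. The difference from control was -1.01 ± 0.62 with CEE (interval -2.32 to 0.31, adjusted p = 0.531), -0.47 ± 0.62 with CEE+MPA (adjusted p = 0.697) and -0.21 ± 0.62 with tibolone (adjusted p = 0.98). LPL 2 (MmugDNA.10451.1.S1_at) varied 22.8-fold over the arrays, with -1.23 ± 0.76 for CEE and -0.81 ± 0.76 for CEE+MPA against control, neither past the threshold. LPL 3 and 4 stayed between 241 and 432 and between 182 and 308 and did not show the low animals.

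FABP4, the fatty acid carrier of fat cells, did not move with CEE+MPA in the direction of CFD. FABP4 1 (MmugDNA.19691.1.S1_at) gave 14337, 13254, 10714 and 13292 in controls, 15168, 11537, 13160 and 10854 with CEE, 14328, 12602, 14969 and 19280 with CEE+MPA, and 13237, 14250, 15643 and 7572 with tibolone. The highest single value was a CEE+MPA animal and the lowest a tibolone animal. CEE+MPA against control was 0.24 ± 0.21 (interval -0.21 to 0.68, adjusted p = 0.533), CEE against control -0.03 ± 0.21 (-0.47 to 0.41, adjusted p = 0.972) and tibolone against control -0.07 ± 0.21 (-0.51 to 0.37, adjusted p = 0.98). FABP4 2 (MmugDNA.31873.1.S1_at), with 1292 to 5784 over the arrays, was at 0.31 ± 0.38 for CEE+MPA against control (adjusted p = 0.673) and at -0.66 ± 0.38 for tibolone against CEE+MPA (adjusted p = 0.296).

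GPAM encodes the mitochondrial acyltransferase that puts the first fatty acid on glycerol phosphate. GPAM 1 (MmugDNA.33149.1.S1_s_at) gave 2526, 2665, 1148 and 2594 in controls, 1892, 886, 1539 and 649 with CEE, 858, 804, 1491 and 1341 with CEE+MPA, and 1839, 1846, 3300 and 1098 with tibolone. Except for control replicate 3, each control animal lay above all CEE and CEE+MPA animals. The mean was 2233 ± 726 in controls, 2021 ± 922 with tibolone, 1242 ± 574 with CEE and 1124 ± 344 with CEE+MPA (SD, n = 4 each). The differences from control, -0.95 ± 0.38 with CEE+MPA and -0.88 ± 0.38 with CEE, had unadjusted p of 0.0237 and 0.0341 and did not pass (adjusted p = 0.14 and 0.364). GPAM 2 (MmugDNA.33148.1.S1_at) was at -0.83 ± 0.31 and -0.90 ± 0.31 in the same comparisons (adjusted p = 0.117 and 0.274).

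GPD1, the glycerol phosphate dehydrogenase that supplies that glycerol backbone, was spread as widely as ADIPOQ. GPD1 1 gave 1141, 1028, 261 and 1093 in controls, 1028, 392, 594 and 192 with CEE, 638, 213, 548 and 1049 with CEE+MPA, and 625, 821, 1747 and 171 with tibolone. All groups overlapped, and group means accounted for 7.27% of its variance over the arrays, the lowest share of any member. The difference from control was -0.69 ± 0.67 with CEE, -0.51 ± 0.67 with CEE+MPA and -0.27 ± 0.67 with tibolone (adjusted p = 0.715, 0.693 and 0.975). GPD1 2 (MmugDNA.30851.1.S1_s_at) was at -1.11, -0.62 and -0.37 with none past the threshold.

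PNPLA2 encodes adipose triglyceride lipase, which takes the first fatty acid off stored triglyceride. PNPLA2 1 (MmunewRS.78.1.S1_at) gave 1506, 1731, 1743 and 1930 in controls, 2187, 2427, 1848 and 1749 with CEE, 2810, 2246, 2469 and 1786 with CEE+MPA, and 1910, 1901, 1740 and 1497 with tibolone. Of the CEE+MPA animals 3 lay above every control and every tibolone animal. The difference of CEE+MPA from control was 0.41 ± 0.16 (interval 0.08 to 0.75, unadjusted p = 0.0181) and did not pass (adjusted p = 0.12). It passed with array weights (0.47, adjusted p = 0.0452). PNPLA2 2 (MmugDNA.39367.1.S1_at), with 368 to 892 over the arrays, lay on the other side of 0 at -0.22 ± 0.24 (adjusted p = 0.618), so the probe sets of this gene disagree on the sign.

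**Figure D3:**
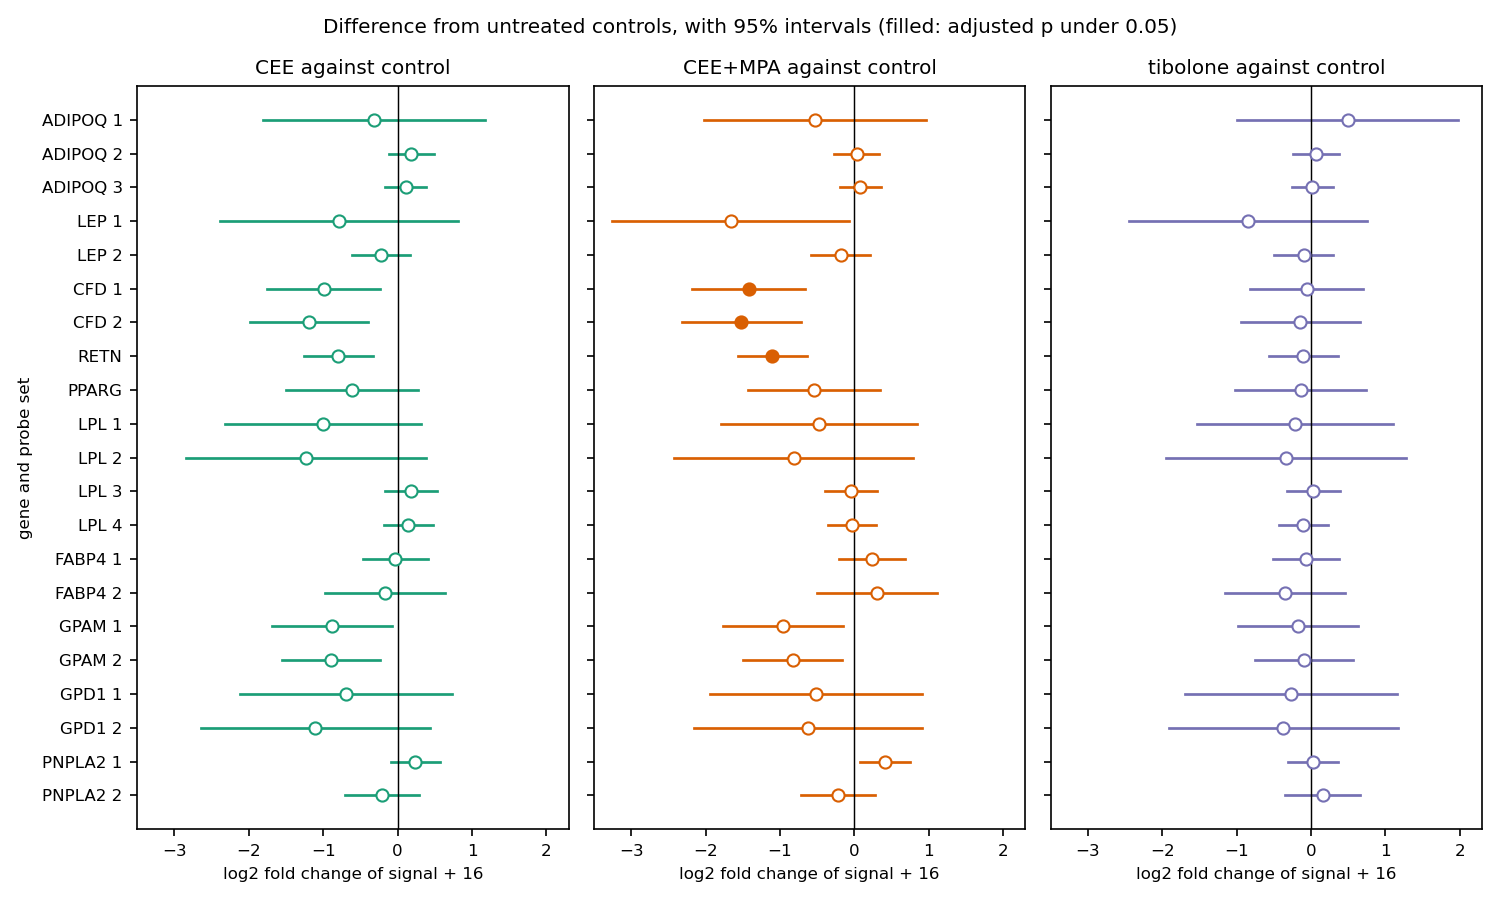
Log2 difference from untreated controls for every member probe set with its 95% interval, for CEE, CEE+MPA and tibolone (4 animals a group); filled points have an adjusted p under 0.05. The 3 filled points are CFD 1 (-1.42), CFD 2 (-1.52) and RETN (-1.11) with CEE+MPA, and the widest intervals belong to ADIPOQ 1, LEP 1, LPL 1 and 2 and GPD1 1 and 2.

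Much of the variation of the fat cell genes lay between animals of one group. The within-group SD was 1.13 for ADIPOQ 1, 1.21 for LEP 1, 1.22 for LPL 2 and 1.16 for GPD1 2 on the log2 scale, at or above the 99.3 percentile of all tested probe sets. With 1 probe set for each of the 10 genes, CEE replicate 4 and tibolone replicate 4 each had the lowest signal of their group for all 10. Control replicate 3 and CEE+MPA replicate 2 had the lowest for 7, in both cases ADIPOQ, LEP, PPARG, LPL, FABP4, GPAM and GPD1. Tibolone replicate 3 had the highest of its group for the same 7 genes, and control replicate 1 for 6. In whole tissue, fewer cells of a type and less RNA per cell cannot be told apart.

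In the control and CEE+MPA groups CFD and RETN had other lowest animals. On control replicate 3, where ADIPOQ was 239 and GPD1 261, CFD (7150) and RETN (261) were each the second highest of the group. On CEE+MPA replicate 4, where ADIPOQ and FABP4 were at their highest in the group, RETN was lowest. Over the 16 arrays the correlation of a gene with the mean of the other 9 (each gene centred, Pearson) was 0.944 for PPARG, 0.897 for GPD1, 0.89 for LPL, 0.887 for ADIPOQ and 0.864 for GPAM. It was 0.758 for LEP, 0.557 for CFD, 0.552 for FABP4, 0.435 for RETN and -0.207 for PNPLA2. These values describe arrays that share tissue pieces, labelling and scaling, and carry no test.

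Among 10445 other genes with a tested probe set, those whose signal over the 16 arrays was most like the mean of the 10 members were RBP4 (r = 0.963), which encodes the plasma retinol carrier, BCHE (0.953), the cholinesterase gene, and G0S2 (0.94), which encodes an inhibitor of the PNPLA2 lipase. CCDC69 (0.934), SGK2 (0.924), DGAT2 (0.902), which encodes the enzyme of the last step of triglyceride synthesis, ALDOC (0.902) and AQP7 (0.901), the glycerol channel of fat cells, came next. With the group means taken out, the order was RBP4 (0.964), BCHE (0.956), ALDOC (0.945), AQP7 (0.935) and CCDC69 (0.926), so the likeness was there within groups. None of RBP4, G0S2, DGAT2 and AQP7 passed against control. For CEE+MPA RBP4 was at -1.10 ± 0.76, G0S2 at -0.87 ± 0.53, DGAT2 at -1.21 ± 0.86 and AQP7 at -0.32 ± 0.52 (adjusted p = 0.412, 0.348, 0.431 and 0.763).

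Other secreted factors of fat included 4 lower genes with CEE+MPA against control and 0 higher among 16 tested of 22 listed, with a median of -0.48, where 4.38% of all tested probe sets were lower and their median was -0.01. RARRES2, which encodes chemerin, a chemoattractant and adipokine, fell from a mean signal of 3583 to 1174 (-1.59 ± 0.23, adjusted p = 0.00304). C1QTNF3, a relative of adiponectin, fell from 377 to 130 (-1.47 ± 0.27, adjusted p = 0.00855). It was at 176 with CEE (-1.02 ± 0.27 against control) and 160 with tibolone (-1.17 ± 0.27), which did not pass (adjusted p = 0.179 and 0.35). BMP4 fell by 1.08 ± 0.29 (adjusted p = 0.0375), and SFRP5, a Wnt inhibitor, by 1.17 ± 0.32 (adjusted p = 0.0399) between signals of 67.4 and 22.2, both low on this array. RARRES2 and SFRP5 were higher with tibolone than with CEE+MPA (1.48 ± 0.23 and 1.44 ± 0.32, adjusted p = 0.00486 and 0.0223), where 3.78% of all tested probe sets passed as higher.

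Receptors and signal carriers of adipokines were lower in 3 of 8 tested genes of 14 listed with CEE+MPA against control, with a median of -0.66, where 4.38% of all tested probe sets were lower. Of these 3, LEPR and LEPROT may not be separate measurements, and each of the 3 missed the threshold without control replicate 1 or control replicate 2. LEPR, the leptin receptor, went from a mean signal of 206 in controls to 50.4 (-1.69 ± 0.39, adjusted p = 0.0219). The second of these lies under the signal of 60.2 used as the filter, and the difference ran from -2.82 to -0.55 over the alternatives. With CEE alone LEPR was at 59.5 (-1.46 ± 0.39 against control, adjusted p = 0.178). CEE+MPA against CEE was -0.22 ± 0.39 for LEPR (adjusted p = 0.922). LEPROT, a neighbour of LEPR that shares its first exons, so that their probe sets may read common transcripts, fell by 0.74 ± 0.20 (adjusted p = 0.0368). JAK2, the kinase under the leptin receptor, fell by 0.99 ± 0.22 (adjusted p = 0.0213). The adiponectin receptors did not pass, with 0.19 ± 0.13 for ADIPOR1 and -0.19 ± 0.16 for ADIPOR2 (adjusted p = 0.415 and 0.514). With tibolone against CEE+MPA, JAK2 (0.92 ± 0.22, adjusted p = 0.0312) and PRKAA1, a subunit of AMP-activated kinase (0.68 ± 0.18, adjusted p = 0.0391), were higher, and ADIPOR1 was lower (-0.48 ± 0.13, adjusted p = 0.0453). That comparison had 6.34% of all tested probe sets past the threshold, 3.78% of them as higher.

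Of the transcription factors of fat cells (15 tested of 18) 1 was higher and 1 lower with CEE+MPA against control. Of all tested probe sets, 6.33% passed there, and 4.38% passed as lower. STAT5B rose by 1.31 ± 0.27 (adjusted p = 0.014), and ZNF423, a factor of fat cell precursors, fell by 0.84 ± 0.22 (adjusted p = 0.0351). With CEE against control they were at 1.13 ± 0.27 and -0.74 ± 0.22 and did not pass (adjusted p = 0.134 and 0.218). CEE+MPA against CEE was 0.18 ± 0.27 and -0.10 ± 0.22 (adjusted p = 0.905 and 0.941). CEBPA, which works beside PPARG, was at -0.34 ± 0.41 for CEE+MPA against control (adjusted p = 0.658). With tibolone against CEE+MPA, ZNF423 was higher (0.92 ± 0.22, adjusted p = 0.0287) and STAT5B lower (-1.13 ± 0.27, adjusted p = 0.0278), where 6.34% of all tested probe sets passed. The lipolysis list (9 tested of 14) had 1 lower gene with CEE+MPA against control, ADRA2A, the alpha-2A adrenergic receptor that restrains lipolysis. It fell from 361 to 106 (-1.60 ± 0.30, adjusted p = 0.00966). ADRA2A was higher with tibolone than with CEE+MPA (1.58 ± 0.30, adjusted p = 0.013), where 3.78% of all tested probe sets passed as higher.

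The fat synthesis list (19 tested of 23) had 1 higher gene with CEE+MPA against control and 0 lower, with a median of -0.09. Of all tested probe sets, 6.33% passed there. ACSS2, which makes acetyl-CoA from acetate, rose by 0.92 ± 0.22 (adjusted p = 0.0251), and MOGAT1 did not pass (1.29 ± 0.44, adjusted p = 0.0896). Both were lower with tibolone than with CEE+MPA (ACSS2 -1.19 ± 0.22, adjusted p = 0.0114, and MOGAT1 -2.02 ± 0.44, adjusted p = 0.0223), where 6.34% of all tested probe sets passed. The epithelium of the gland also makes fat, and these arrays do not separate it from fat cells.

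Among genes of the fat droplet and of fat cell identity (13 tested of 21), CAV1, which coats the pits of the fat cell membrane and is also high in endothelium, was lower with CEE+MPA against control (-0.64 ± 0.16, adjusted p = 0.0308) and 0 were higher. Of all tested probe sets, 6.33% passed in that comparison, and 4.38% passed as lower. The partners of lipoprotein lipase (8 tested of 14) had 0 genes past the threshold there. LMF1, which the lipase needs to fold, was higher with tibolone than with CEE+MPA (0.73 ± 0.19, adjusted p = 0.0358), where 3.78% of all tested probe sets passed as higher. In the other 4 comparisons 0 genes of the 7 lists passed by limma, where 0.00696% to 0.0731% of all tested probe sets did.

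Of the 12 listed genes past the threshold with CEE+MPA against control, RARRES2, C1QTNF3 and ADRA2A passed with any single array left out. The other 9 all missed it without control replicate 2 (highest adjusted p over single omissions 0.138, for SFRP5). Of the 11 with tibolone against CEE+MPA, RARRES2 and ACSS2 passed with any single array left out, 8 missed the threshold without tibolone replicate 2 and SFRP5 missed it without CEE+MPA replicate 3 or tibolone replicate 3 (highest adjusted p 0.122, for PRKAA1). The listed genes past the threshold in these 2 comparisons kept their direction in every alternative. Over the whole table, calls for CEE+MPA against control fell from 1819 to 348 without control replicate 2. Those for tibolone against CEE+MPA fell from 1820 to 209 without tibolone replicate 2, so such losses were not particular to the listed genes.

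Markers of other cells also differed between the groups in which CFD and RETN differed. Of all tested probe sets, 6.33% passed with CEE+MPA against control, and 4.38% passed as lower. The macrophage list (13 tested of 16; CD163, MSR1 and FCER1G had no tested probe set) had a mean, over genes centred on all arrays, of 0.33 ± 0.22 in controls, -0.30 ± 0.30 with CEE, -0.18 ± 0.19 with CEE+MPA and 0.15 ± 0.45 with tibolone (SD, n = 4 each). Its summed signal was 16006 to 20354 in controls, 10004 to 17502 with CEE, 14940 to 17573 with CEE+MPA and 11745 to 18292 with tibolone. MS4A7 was the one of its genes past the threshold, lower with CEE+MPA than control (-0.80 ± 0.19, adjusted p = 0.0243), and missed it without control replicate 2 or CEE+MPA replicates 2 or 3 (highest adjusted p 0.076). With the list mean as a covariate, CEE+MPA against control was -1.11 and -1.09 for the CFD probe sets (adjusted p = 0.252 and 0.261) and -0.93 for RETN (adjusted p = 0.141). None passed. The list mean barely overlapped between these groups, at 0.06 to 0.58 in controls and -0.38 to 0.07 with CEE+MPA. The covariate thus takes up part of the group difference, and this fit cannot tell the list from the treatment.

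The monocyte and neutrophil list (7 tested of 12) had 0 genes past the threshold, with list means of 0.26 ± 0.38 in controls and -0.17 ± 0.20 with CEE+MPA (SD, n = 4 each). The endothelial list (11 tested of 14) lay at 0.01 to 0.54 in controls and -0.31 to -0.17 with CEE+MPA, and ERG (-0.48 ± 0.13) and RAMP2 (-0.73 ± 0.19) were lower (adjusted p = 0.0394 and 0.0349). Of the precursor and fibroblast list (12 tested of 15), DLK1, which blocks fat cell formation, was higher with CEE+MPA than control (3.06 ± 0.57, adjusted p = 0.00949). The stromal genes DPT (-1.95 ± 0.30, adjusted p = 0.0042), OGN (-1.81 ± 0.28, adjusted p = 0.00404), PI16 and LUM were lower. DLK1, DPT and OGN passed with any single array left out, while ERG, RAMP2, PI16 and LUM each missed the threshold without control replicate 1 or control replicate 2 (highest adjusted p over single omissions 0.141, for ERG).

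KRT5, KRT14 and KRT17 had no tested probe set in the basal epithelial list (5 tested of 8). Of all tested probe sets, 9.41% lay wholly lower with CEE+MPA than control, a share for single probe sets and not for list means. Like the endothelial list and the lists of adipokine receptors and of other secreted factors, the basal list did not overlap between CEE+MPA and control. Its mean was 0.28 ± 0.12 in controls, 0.10 ± 0.10 with CEE, -0.60 ± 0.37 with CEE+MPA and 0.23 ± 0.27 with tibolone (SD, n = 4 each), and its summed signal was 5309 to 5786 in controls and 2248 to 3548 with CEE+MPA. TRIM29 (-1.60 ± 0.33, adjusted p = 0.0143) and the smooth muscle actin ACTG2 (-2.03 ± 0.44, adjusted p = 0.0167) were lower with CEE+MPA than control, and both missed the threshold without control replicate 2 or CEE+MPA replicate 3. They were higher with tibolone than with CEE+MPA (1.41 ± 0.33 and 1.93 ± 0.44, adjusted p = 0.0273 and 0.0238), the directions of CFD and RETN. In the luminal epithelial list (16 tested of 18) KRT19 was higher with CEE+MPA than control (0.63 ± 0.17, adjusted p = 0.0409) and missed the threshold whichever single array of the 2 groups was left out.

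With tibolone against CEE+MPA 10 marker genes of the 8 lists passed, where 6.34% of all tested probe sets did. Genes tested were 15 for skeletal muscle, 13 for macrophages, 7 for monocytes and neutrophils and 11 for endothelium. They were 12 for precursors and fibroblasts, 16 for luminal epithelium, 5 for basal epithelium and 4 for brown fat. RAMP2, CLDN5, PI16, DPT, OGN and FOXA1 were higher beside TRIM29 and ACTG2, and DLK1 and ELF5 were lower. All 10 missed the threshold without CEE+MPA replicate 3, tibolone replicate 2 or tibolone replicate 3 (highest adjusted p 0.136). Calls over the whole table fell from 1820 to 209 without tibolone replicate 2. The part of the cells marked by these lists in the CFD and RETN result was not tested.

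The fat droplet list overlapped between the groups. PLIN1, PLIN2, PLIN4 and CIDEC, defining genes of the droplet, had no tested probe set in it, and it holds CAV1, itself lower with CEE+MPA. The list had a mean of -0.52 to 0.49 in controls, -0.70 to 0.20 with CEE, -0.42 to 0.30 with CEE+MPA and -0.62 to 0.69 with tibolone. With it as a covariate CEE+MPA against control was -1.31 and -1.38 for the CFD probe sets (adjusted p = 0.0322 and 0.0228) and -1.08 for RETN (adjusted p = 0.0156). In the same model ADIPOQ moved from -0.52 to -0.12, GPD1 from -0.51 to -0.12 and LPL from -0.47 to -0.14, none past the threshold. GPAM 1 then passed at -0.76 (adjusted p = 0.0437). With the luminal epithelial list as a covariate the calls for CFD (-1.43 and -1.53) and RETN (-1.11) held (adjusted p = 0.0287, 0.0297 and 0.0145). The mean of that list was 0.02 in controls and 0.04 with CEE+MPA, so this fit could take up little of a group difference. Its summed signal was 72347 to 77010 in controls and 80676 to 100984 with CEE+MPA, and the part of epithelial content was not tested. These covariates were chosen after the data were seen, the basal list was not among them, and the part of fat content in these differences was not tested.

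**Figure D4:**
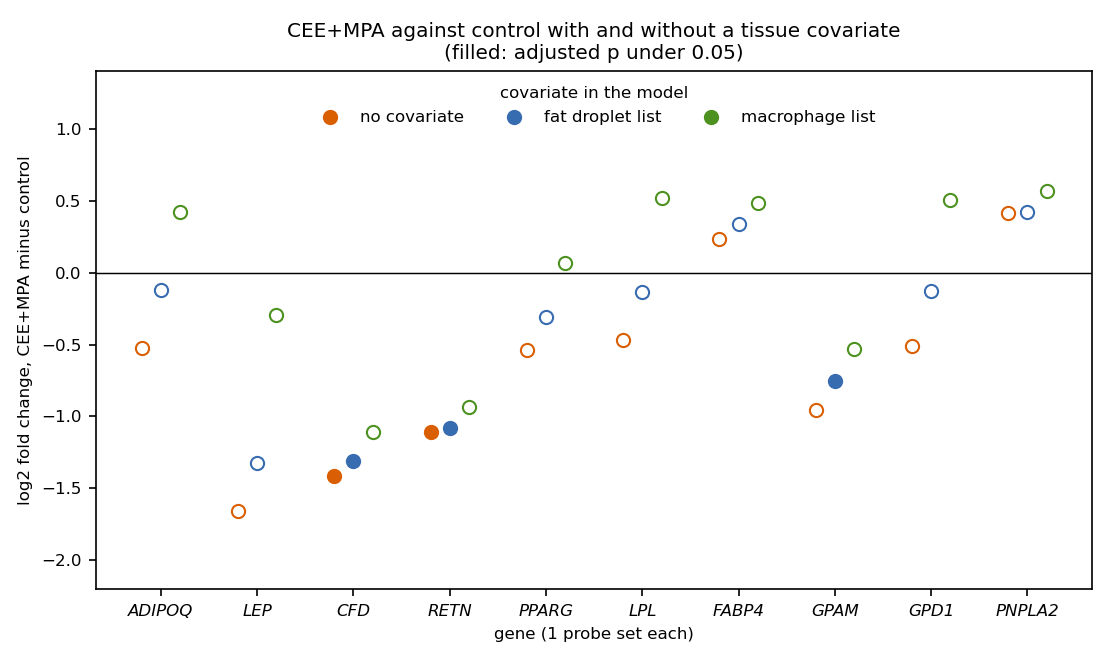
Log2 difference of CEE+MPA from control for 1 probe set per gene, in the model without a covariate and with the fat droplet or the macrophage list mean as a covariate; filled points have an adjusted p under 0.05. CFD and RETN are filled without a covariate and with the fat droplet list (CFD -1.42 and -1.31, RETN -1.11 and -1.08) and open with the macrophage list (-1.11 and -0.93). The macrophage list mean barely overlapped between the 2 groups, so the open points cannot tell that list from the treatment.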

How the data were processed

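Total RNA was measured on 16 arrays, 1 per animal. The deposited values were linear intensity (signal) per probe set, which the authors had scaled to a common 2% trimmed mean (250.02 on 15 arrays and 250.01 on 1, as read from the values). GCOS and Affymetrix Expression Console were used per the submitters' processing notes, and their algorithm is not stated there. Among the 52865 probe sets 24969 carried 1 symbol, 361 several and 27535 none. No genome build of the probes is given, so no positions are printed.

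Signals were taken as log2(signal + 16). Probe sets above 60.2, the table median without 99 Affymetrix controls, on at least 4 arrays were tested (28716, for 10455 genes, each read from its probe set with the highest mean). limma fitted the 4 group means to all 16 arrays at once, gave 6 comparisons, and was tested on simulated data. The number of arrays limits the precision. Replicate numbers follow the deposited order. The p-values weigh a group difference against the spread between animals within groups, which limma moderates over all tested probe sets.

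The members, the 7 lists of fat genes and the 8 marker lists were chosen with earlier results of these data known. Named were all member probe sets, in each list the members past the threshold (at most 4, or the 2 with the smallest p), and the 8 most like genes, or 5 after group means. CEBPA, the adiponectin receptors, MS4A7 and the marker genes were named outside that rule, after their values were seen. The alternatives were median centring, quantile normalization, no filter or one at a signal of 276 (the upper quartile), an offset of 1 or 64, array weights, only the groups compared, the spike-in sets as a block or separately (split of dap at 7.5), omission of the high-muscle arrays, a threshold of 0.10 and each array left out. Covariates from 3 lists were added after the data were seen. Software was limma 3.58.1 in R 4.3.3, with figures by matplotlib 3.10.9 in Python 3.11.15.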

Additional observations from a re-analysis of the deposited data

Results flagged for a closer look

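In 10 of 84 sets of 4 animals (21 probe sets in 4 groups) the farthest animal stood apart by Dixon's ratio, past its 95% limit for 4 values. The ratio is the gap to the nearest neighbour over the whole range, and chance gives about 1 in 20 for independent sets. These sets share animals and hold several probe sets of a gene, so the count cannot be set against that rate. Control replicate 3 was far under the other control animals for PPARG (235 against 481 to 517, ratio 0.908), both GPAM probe sets (1148 against 2526 to 2665, ratio 0.934, and 1239 against 2159 to 2253, ratio 0.93) and both GPD1 probe sets (261 against 1028 to 1141, ratio 0.928, and 228 against 957 to 1073, ratio 0.924). RETN was lowest on control replicate 4 (145 against 254 to 271, ratio 0.893), and CFD (MmugDNA.36912.1.S1_at) was highest on control replicate 2 (12571 against 6522 to 7150, ratio 0.853). The LPL probe set MmugDNA.10451.1.S1_at was lowest on CEE replicate 4 (266 against 1687 to 2439, ratio 0.83) and on CEE+MPA replicate 2 (484 against 2269 to 2510, ratio 0.94). PNPLA2 (MmugDNA.39367.1.S1_at) was lowest on tibolone replicate 1 (534 against 725 to 739, ratio 0.941). What sets these animals apart was not tested.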

How the results depend on the processing

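No difference past the threshold for a member changed sign under any alternative. For CEE+MPA against control the 3 member calls became 1 with no filter, without the high-muscle arrays and within the high spike-in set, and 0 within the low set and with the macrophage covariate; leaving out single arrays gave 0 (without control replicate 2) to 3. For tibolone against CEE+MPA the 3 became 1 with no filter, with the spike-in block and with only the groups compared, and 0 without the high-muscle arrays, within the high set and with the macrophage covariate; leaving out single arrays gave 0 to 3, with 0 without CEE+MPA replicate 3, tibolone replicate 2 or tibolone replicate 3. The cause was not tested. The other 4 comparisons kept 0 members past the threshold in every alternative run. RETN was not tested under the stricter filter. Over the whole table, single omissions gave 348 to 1981 calls for CEE+MPA against control (1819 with all arrays) and 209 to 3333 for tibolone against CEE+MPA (1820), and other alternatives 0 to 3729 and 0 to 3750. The second FABP4 probe set passed for tibolone against CEE+MPA with the fat droplet covariate (-0.84, adjusted p = 0.0436). No paired analysis was possible because the labels give no replicate numbers and no animal was in more than 1 group.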
